A study of Mus musculus with 10 samples.

Results

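The enzymes that build ceramide and the first sphingolipids made from it were followed in brown fat whose adipocytes had Crls1 deleted. The set holds 10 genes, found by their symbols among the 15075 genes of the deposited table: Sptlc1, Sptlc2, Kdsr, Cers2, Cers4, Cers5, Cers6, Degs1, Sgms1 and Ugcg. Of these, 9 passed the minimum for testing, a mean of at least 10 in either group, and were compared along with the other genes that passed, 11244 in all. Polyadenylated RNA was sequenced from interscapular brown adipose tissue (iBAT) of 5 Control and 5 AdCKO mice, 1 library per mouse. All mice were C57BL/6, 20 weeks old and housed at room temperature, and all carried Crls1 alleles with floxed exon 4 in the homozygous state. Crls1 encodes cardiolipin synthase, which makes the signature phospholipid of the inner mitochondrial membrane. AdCKO mice also carried Cre recombinase driven by the adiponectin promoter, which deletes the floxed exon in adipocytes of every depot and leaves other cells of the tissue with the gene. Control mice lacked Cre, and the labels call them wild-type. The sex of the mice was not given in the sources used here.

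Ceramide is assembled on the endoplasmic reticulum, where serine palmitoyltransferase joins serine to palmitoyl-CoA, a reductase makes sphinganine, ceramide synthases attach the fatty acyl chain, and a desaturase introduces the double bond that turns dihydroceramide into ceramide. The Golgi then converts ceramide to sphingomyelin or to glucosylceramide, the root of the complex glycosphingolipids. Ceramide synthases differ in the length of the acyl chain they prefer, and in adipose tissue the chain length of ceramides is known to matter for mitochondrial function and insulin signaling. The RNA of these genes was measured here, and neither the enzymes nor the lipids were.

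Values are normalized reads per kb of counted exon (reads per kb below), so that levels can be compared between genes. The mean of Crls1 was 217 ± 26.4 reads per kb in AdCKO against 1060.2 ± 191 in Control (SD, n = 5 each, as for all means below), and the 2 groups did not overlap. Each Control library summed to 7615403 to 8171138 normalized reads and each AdCKO library to 5419800 to 5843024, and scaling every library to the same total raised the median log2 fold change of all tested genes by 0.48. Markers of other cells moved with the genotype. Macrophage markers summed to between 728 and 2346 reads per kb in Control and between 8481 and 11579 in AdCKO, and all 10 were higher. Of 8 fibroblast and preadipocyte markers, 7 were higher, with sums of 1145 to 1433 in Control and 4472 to 6263 in AdCKO. Of 10 adipocyte markers, 7 were lower and none was higher, with sums of 217585 to 256582 in Control and 134489 to 160848 in AdCKO. At equal library totals 4 were lower and 2 higher, and after quantile normalization 3 were lower and none was higher. Of the mean Control sum of 233818, Fabp4 made up 147241, and Fabp4 was not called. Ucp1, the uncoupling protein of brown adipocytes, was still at 14069 reads per kb in AdCKO. Lymphocyte markers summed to 48.6 to 81.3 in Control and 64.2 to 283 in AdCKO (2 of the 6 tested were higher), endothelial markers to 1361 to 1759 and 1474 to 2062 (3 of 7 higher), and Schwann cell markers to 495 to 767 and 319 to 562 (4 of 5 higher and 1 lower). Skeletal muscle markers summed to 441 to 481 reads per kb in Control, to 268 and 275 in AdCKO mice 3 and 5, and to 5908, 21541 and 8325 in AdCKO mice 1, 2 and 4, with 1 of the 8 called as higher. Of the mean Control sum of 461, Myl1 made up 366, so that sum does not measure muscle content. Myl1 ranged from 138 to 1660 in AdCKO and was not called. The called gene, Acta1, was at 39.4 to 56.1 in Control and 74.5 to 7056 in AdCKO. No marker was at 0 in any library. The part of these other cells in the results below was not tested, and in whole tissue fewer cells of a type and less RNA per cell cannot be told apart.

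Of the 9 genes tested, 4 were higher in AdCKO iBAT (Sptlc2, Degs1, Sgms1 and Ugcg), 2 were lower (Sptlc1 and Kdsr) and 3 ceramide synthases were not called, and with the same total in every library Sptlc1 turned to the other direction and Kdsr was no longer called. The threshold for a call was an adjusted p of 0.01 in limma, a linear model fitted to log2(value + 1) of all tested genes with Benjamini-Hochberg adjustment over them. Calls were common in this tissue: 53.6% of all tested genes were called, 25.6% as higher and 28.0% as lower. The share called among the 9 genes, 6 of 9, stood against that background and is not a result about the set. The median log2 fold change was 0.22 for the 9 genes and -0.01 for all tested genes, and the median absolute log2 fold change was 0.64 against 0.38. Without the 3 AdCKO libraries rich in muscle markers, the same 6 genes were called in the same directions.

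**Figure D1:**
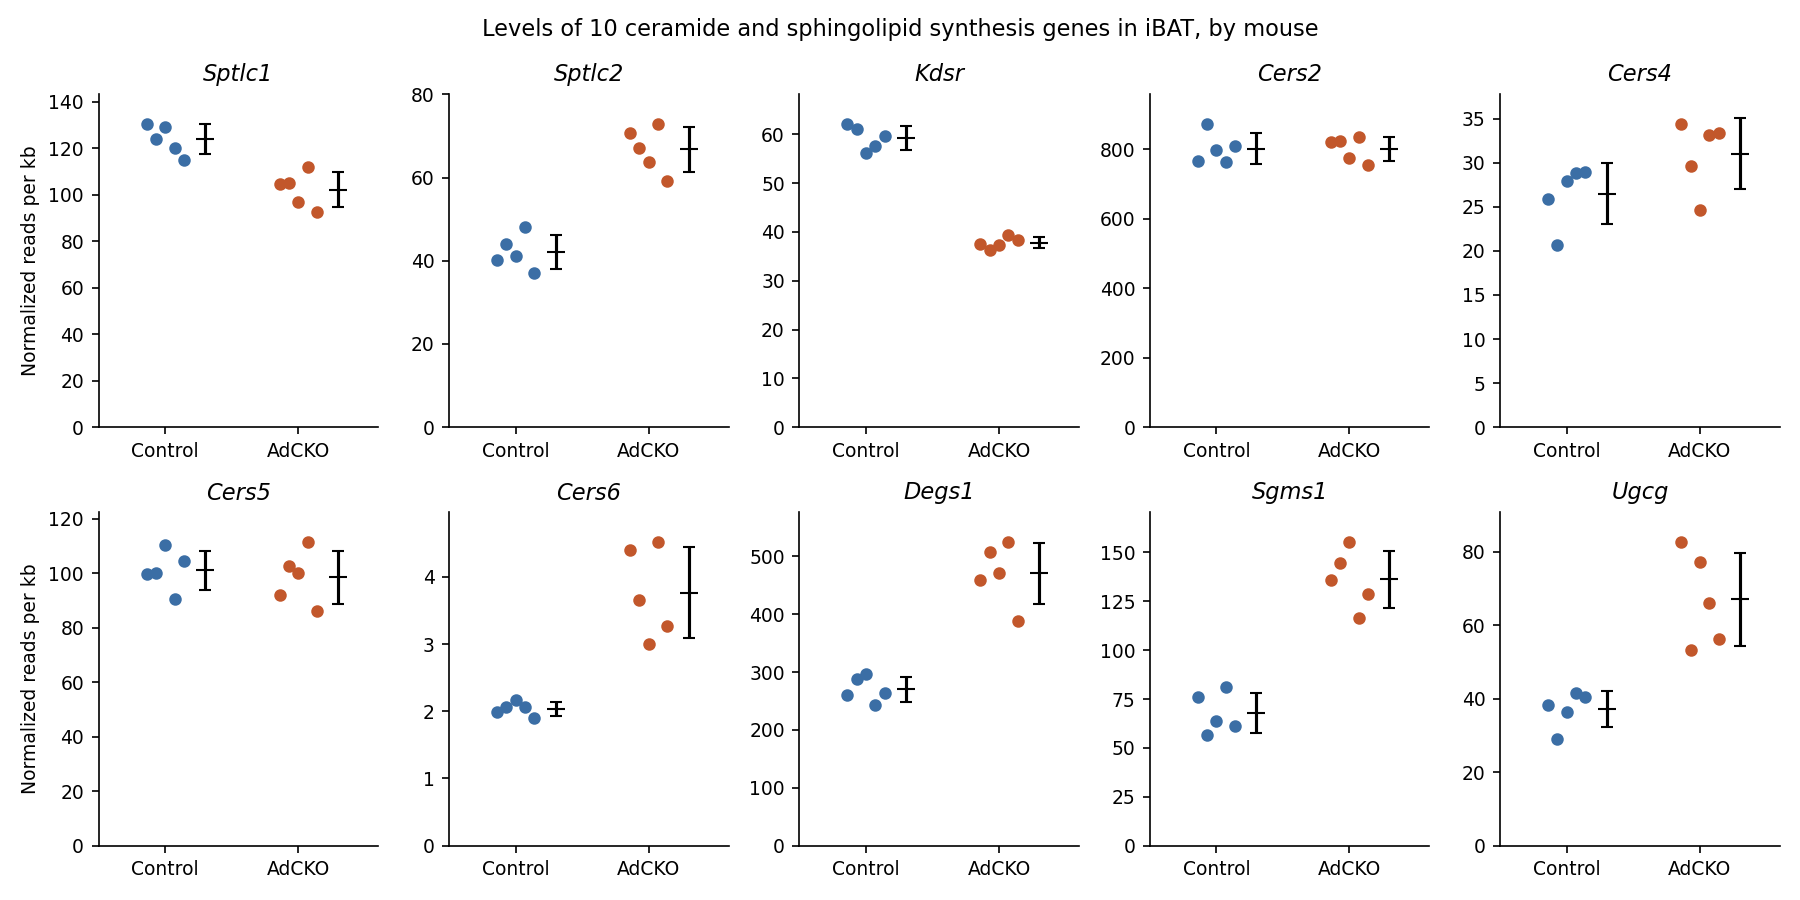
Level of each of the 10 genes in normalized reads per kb (linear axes that start at 0), with 1 point per mouse for the 5 Control and 5 AdCKO mice and the group mean with its SD beside them. The groups are apart for Sptlc1, Sptlc2, Kdsr, Cers6, Degs1, Sgms1 and Ugcg and overlap for Cers2, Cers4 and Cers5, on the deposited scaling. Groups were also apart in 50.9% of all tested genes. Sptlc1 is lower in AdCKO here and turns to a log2 fold change of 0.20 when every library is given the same total.

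Serine palmitoyltransferase commits serine to sphingolipids, and its main subunits moved in opposite directions on the deposited scaling. Sptlc1 (NM_009269, mm9 chr13:53428119-53472730, minus strand) encodes the subunit shared by all forms of the enzyme. Its level was 130.4, 124, 129, 120.0 and 115 reads per kb in Control mice 1 to 5 and 104, 105, 97.0, 112 and 92.5 in AdCKO mice 1 to 5. Every AdCKO mouse was below every Control mouse, though the lowest Control and the highest AdCKO mouse were close. The means were 124 ± 6.40 and 102 ± 7.56, a log2 fold change of -0.28 with a 95% interval of -0.42 to -0.13 (limma adjusted p = 0.00356), which became 0.20 (adjusted p = 0.0249) with the same total in every library, where the median of all genes was 0.47.

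Sptlc2 (NM_011479, chr12:88648839-88729180, minus strand) encodes the subunit that carries the catalytic cofactor. It was measured at 40.1, 44.0, 41.2, 48.2 and 37.2 reads per kb in the Control mice and at 70.8, 67.1, 63.8, 72.9 and 59.2 in the AdCKO mice. All 5 AdCKO values lay above all 5 Control values. The mean rose from 42.1 ± 4.19 to 66.8 ± 5.50, that is 1.58-fold or 0.65 on the log2 scale (95% interval 0.47 to 0.84, limma adjusted p = 2.73e-05). The 3 AdCKO mice with high muscle markers held the 3 highest AdCKO values of Sptlc1 and of Sptlc2, and without them the log2 fold changes were -0.38 and 0.54, both still called. Per unit of Sptlc1 there was 0.341 ± 0.0382 of Sptlc2 in Control and 0.653 ± 0.0160 in AdCKO, with ranges of 0.308 to 0.402 and 0.639 to 0.678. A ratio within a library does not change when the whole library is scaled by a single factor. This one shifted by 0.94 on the log2 scale (exact two-sided permutation test, p = 0.0079, adjusted p = 0.0238 over 6 ratios), where 0.0079 is the smallest p that 5 against 5 allows. Quantile normalization is not a single factor per library, and it put Sptlc2 at 0.55 and Sptlc1 at -0.25.

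The next enzyme, 3-ketodihydrosphingosine reductase, was the lower gene with the larger change. Kdsr (NM_027534, chr1:108616987-108656319, minus strand) stood at 62.1, 61.1, 56.1, 57.5 and 59.5 reads per kb in Control and at 37.6, 36.3, 37.4, 39.3 and 38.3 in AdCKO. The spread among mice of the same genotype was the smallest of the set, with a coefficient of variation of 4.20% in Control and 2.88% in AdCKO, and the groups were far apart. The AdCKO mean of 37.8 ± 1.09 was 0.637 times the Control mean of 59.3 ± 2.49, a log2 fold change of -0.64 (95% interval -0.77 to -0.51, limma adjusted p = 1.92e-06). With the same total in every library it was -0.16 and missed the threshold (adjusted p = 0.0255).

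Degs1 (NM_007853, chr1:184205901-184212890, minus strand) encodes dihydroceramide desaturase, the last enzyme of de novo ceramide synthesis. Control mice were at 261, 289, 297, 243 and 263 reads per kb and AdCKO mice at 459.8, 508, 471, 524 and 388. The lowest AdCKO mouse lay well above the highest Control mouse. The mean rose 1.74-fold from 270.4 ± 21.9 to 470.5 ± 52.9, or by 0.79 on the log2 scale (95% interval 0.60 to 0.99, limma adjusted p = 8.22e-06). In the order of the pathway and on the deposited scaling, the first enzyme thus had a lower and a higher subunit, the reductase was lower and the desaturase was higher. The 3 tested ceramide synthases, which act before the desaturase, were not called. With the same total in every library neither lower call held (Sptlc1 at 0.20 and Kdsr at -0.16).

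**Figure D2:**
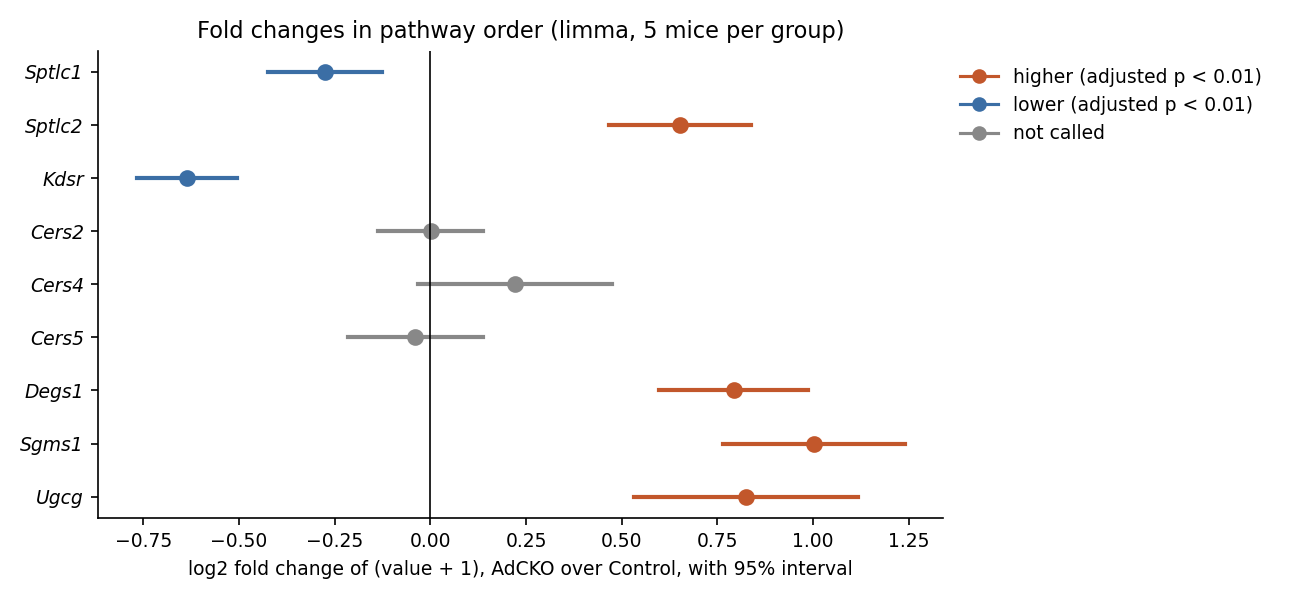
Log2 fold change of (value + 1), AdCKO over Control, for the 9 tested genes in the order of the pathway, with the 95% interval from limma as a bar. Sgms1 (1.00), Ugcg (0.83), Degs1 (0.79) and Sptlc2 (0.65) lie to the right of 0 and Kdsr (-0.64) and Sptlc1 (-0.28) to the left, on the deposited scaling, while with the same total in every library Sptlc1 is at 0.20 and Kdsr at -0.16.

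The promoters of these 4 genes are shown because the genes act in the same chain of reactions and, on the deposited scaling, moved in both directions. Each line gives the 250 bases that end at the annotated start site, 5′ to 3′ on the strand of the gene, from RefSeq on GRCm38.p6, a later build than the mm9 coordinates above. All 4 genes are on the minus strand. Capitals mark GC boxes (GGGCGG on either strand) and CCAAT boxes (CCAAT on either strand), and the last capitals in Kdsr hold 2 GC boxes that share a base.
Sptlc1 (chr13:53377362-53377611): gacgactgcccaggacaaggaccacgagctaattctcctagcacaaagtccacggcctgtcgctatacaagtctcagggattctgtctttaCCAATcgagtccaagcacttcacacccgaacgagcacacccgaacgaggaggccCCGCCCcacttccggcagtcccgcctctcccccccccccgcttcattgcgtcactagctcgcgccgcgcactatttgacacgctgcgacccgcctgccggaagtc
Sptlc2 (chr12:87388356-87388605): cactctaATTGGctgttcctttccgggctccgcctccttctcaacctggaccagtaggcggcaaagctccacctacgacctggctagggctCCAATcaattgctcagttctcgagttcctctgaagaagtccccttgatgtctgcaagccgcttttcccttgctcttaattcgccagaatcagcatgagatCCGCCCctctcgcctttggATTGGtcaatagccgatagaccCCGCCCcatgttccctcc
Kdsr (chr1:106759743-106759992): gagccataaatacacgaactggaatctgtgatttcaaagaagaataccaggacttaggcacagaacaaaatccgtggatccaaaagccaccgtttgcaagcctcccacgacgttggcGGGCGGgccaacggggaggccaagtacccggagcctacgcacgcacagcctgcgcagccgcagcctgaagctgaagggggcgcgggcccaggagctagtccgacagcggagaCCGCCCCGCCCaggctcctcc
Degs1 (chr1:182282196-182282445): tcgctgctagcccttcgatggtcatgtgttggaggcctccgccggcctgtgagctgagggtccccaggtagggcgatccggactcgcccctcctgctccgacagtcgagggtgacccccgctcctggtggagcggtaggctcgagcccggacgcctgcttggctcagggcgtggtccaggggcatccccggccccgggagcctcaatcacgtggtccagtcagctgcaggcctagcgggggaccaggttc

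The promoter of Sptlc1 held 1 GC box and 1 CCAAT box, and that of Sptlc2 held 2 GC boxes and 3 CCAAT boxes. Kdsr had 3 GC boxes and no CCAAT box, and Degs1 had neither. All 4 were richer in G and C than the median promoter (52.4%), with 61.6% in Sptlc1, 55.2% in Sptlc2, 61.6% in Kdsr and 69.6% in Degs1. They held 22, 11, 19 and 19 CpG dinucleotides, where the median promoter held 6. Promoters of all 10 genes were in the table, 14 in all since Cers2 and Sgms1 have several, and a GC box was found in 9 of the 14 (8 genes) and a CCAAT box in 5, against 32.7% and 33.8% of all 32851 promoters. These boxes were chosen after the promoters were seen, so the shares are a description and not a test. Across the 300 bases that also take in 50 bases after the start, none of the 14 held TGATGNAAT, a binding sequence of C/EBP-ATF dimers, TCACGTGA, the E-box of many lysosomal genes, or TGACGTGG, an element of the unfolded protein response, each searched on both strands and found in 0.965%, 0.974% and 0.676% of all promoters.

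Ceramide synthases set the acyl chain of ceramide, and their summed make-up in iBAT was dominated by Cers2 in both genotypes. Cers2 (NM_029789, chr3:95119174-95127490, plus strand) encodes the synthase for very long acyl chains. It was the most abundant gene of the set, at 766, 873, 797, 764 and 809 reads per kb in Control and 822, 823, 776, 834 and 754 in AdCKO. The groups overlapped throughout and the means were 802 ± 44.5 and 802 ± 35.0, a log2 fold change of 0.00 with a 95% interval of -0.14 to 0.14 (limma adjusted p = 0.994). That value was 0.48 once all libraries had the same total, and 0.24 after quantile normalization, both past the threshold. At least 64 exonic bases of Cers2 overlap Setdb1 on the other strand, and whether reads were counted by strand was not given in the sources used here.

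Cers4 (NM_026058, chr8:4493405-4526079, plus strand), a synthase for long to very long chains, was at 25.8, 20.7, 28.0, 28.9 and 28.9 reads per kb in Control and 34.4, 29.6, 24.6, 33.1 and 33.3 in AdCKO. Of the AdCKO mice, 4 were above all Control mice and mouse 3 was within the Control range. The log2 fold change of 0.22 had a 95% interval of -0.03 to 0.48 (limma adjusted p = 0.112), so that an increase by 0.48 was inside the interval. Cers5 (NM_028015, chr15:99566023-99602946, minus strand), which prefers palmitoyl-CoA, was at 99.6, 99.9, 110.5, 90.7 and 105 in Control and at 91.9, 103, 100.2, 111 and 86.2 in AdCKO. Its groups overlapped over nearly their whole range, with a log2 fold change of -0.04 and an interval of -0.22 to 0.14 (limma adjusted p = 0.691). With the same total in every library Cers4 (0.69) and Cers5 (0.44) were both called as higher, close to or above the median of all genes.

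Cers6 (NM_172856, chr2:68699614-68949347, plus strand), the other palmitoyl-CoA synthase, was the scarcest gene of the set and stayed below the minimum mean for testing. It was listed at 1.98, 2.07, 2.17, 2.06 and 1.90 reads per kb in Control and at 4.40, 3.65, 3.00, 4.52 and 3.26 in AdCKO. The lowest AdCKO mouse was above the highest Control mouse, and the Control values were nearly alike while the AdCKO values spread over a coefficient of variation of 17.9%. The means of 2.04 ± 0.101 and 3.77 ± 0.673 differed 1.85-fold (exact two-sided permutation test, p = 0.0079), and with no minimum on the mean limma gave it a log2 fold change of 0.64 and an adjusted p of 5.79e-05. A gap of this kind was common, since in 50.9% of all tested genes the 5 values of either group all lay beyond those of the other. The 3 AdCKO mice rich in muscle markers held the 3 highest values of Cers6.

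As shares of the summed level of the 4 synthases, Cers2 made up 86.1% ± 1.01 in Control and 85.8% ± 0.542 in AdCKO, Cers5 10.9% ± 0.714 and 10.5% ± 0.752, and Cers4 2.86% ± 0.457 and 3.32% ± 0.427. These shares did not differ beyond the spread between mice in exact two-sided permutation tests, with adjusted p = 0.627, 0.590 and 0.270 over the 6 ratios. Cers6 made up 0.219% ± 0.0141 of the summed level in Control and 0.401% ± 0.0571 in AdCKO, without overlap of the groups (exact permutation test, p = 0.0079, adjusted p = 0.0238). The difference in its share was 0.182 percentage points, and 0.133 points without the 3 muscle-rich libraries, where 5 against 2 mice could not pass the threshold. Cers6 was below the minimum mean for testing, and how such low values were moderated between samples is not known. The part of that moderation in the narrow Control spread of Cers6 (coefficient of variation 4.93%) and in this p was not tested.

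**Figure D3:**
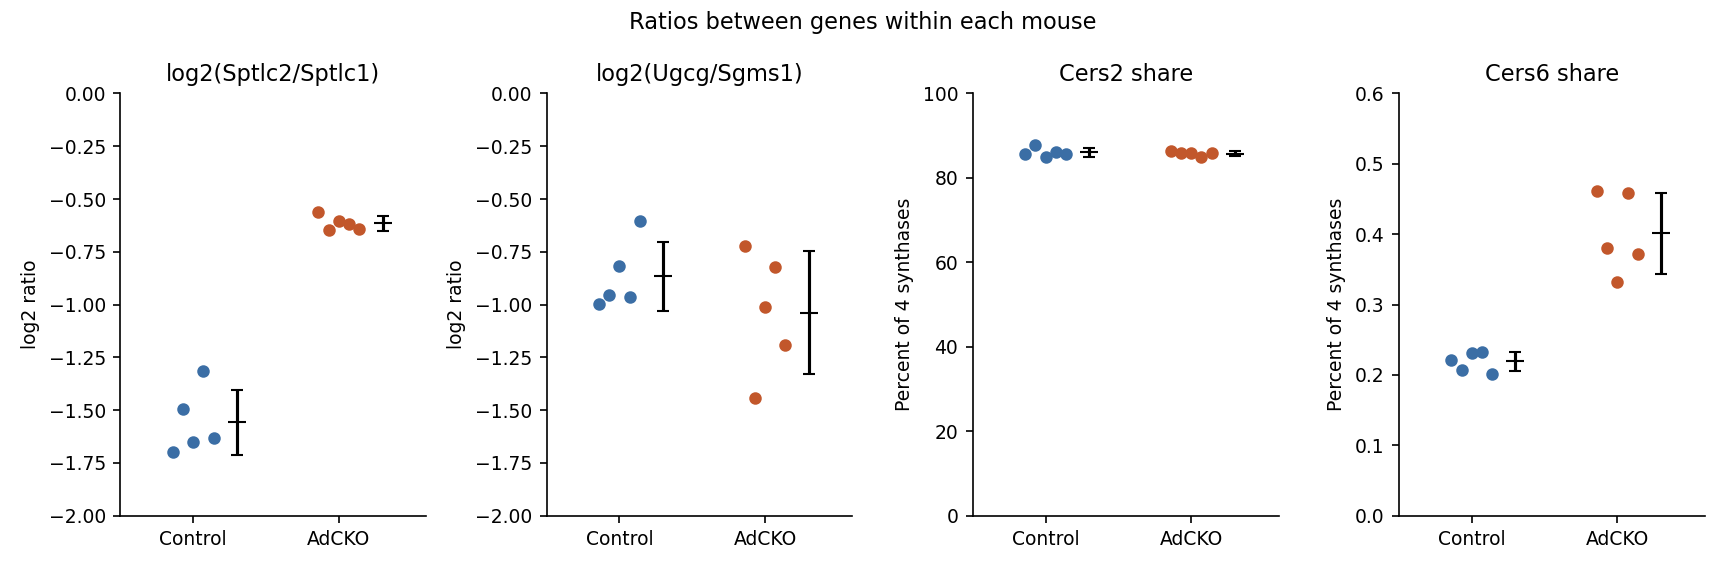
Ratios formed within each mouse, with 1 point per mouse and the group mean with its SD: log2 ratio of Sptlc2 to Sptlc1 and of Ugcg to Sgms1, and the percent of Cers2 and of Cers6 in the summed level of the 4 ceramide synthases (the Cers6 axis is enlarged). The Sptlc2 to Sptlc1 ratio and the Cers6 share separate the genotypes, while the Cers2 share and the Ugcg to Sgms1 ratio overlap. Cers6 was below the minimum mean for testing.

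Both enzymes that take ceramide onward in the Golgi were higher. Sgms1 (NM_144792, chr19:32197217-32462944, minus strand) encodes the Golgi sphingomyelin synthase. Control mice were at 76.2, 56.5, 63.9, 81.0 and 61.4 reads per kb and AdCKO mice at 136, 145, 155, 117 and 129. Every AdCKO value was above every Control value. The mean rose 2.01-fold from 67.8 ± 10.3 to 136 ± 14.8, the largest fold change among the 9 tested genes on this scaling, with a log2 value of 1.00 (95% interval 0.76 to 1.24, limma adjusted p = 6.19e-06). Of all tested genes, 82.8% had a smaller absolute log2 fold change.

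Ugcg (NM_011673, chr4:59202422-59235705, plus strand) encodes glucosylceramide synthase. Its level was 38.2, 29.1, 36.3, 41.5 and 40.4 reads per kb in Control and 82.5, 53.1, 77.1, 66.0 and 56.3 in AdCKO. The groups did not overlap, and the AdCKO mice were spread more widely than those of any other tested gene of the set (coefficient of variation 19.0%). The mean rose 1.81-fold from 37.1 ± 4.90 to 67.0 ± 12.8, or by 0.83 on the log2 scale (95% interval 0.53 to 1.12, limma adjusted p = 0.000166). The RNA ratio of these 2 genes did not differ beyond its spread, with 0.551 ± 0.0654 of Ugcg per unit of Sgms1 in Control and 0.495 ± 0.0962 in AdCKO. On the log2 scale, which was the one tested, the difference was -0.17 (exact permutation test, p = 0.310, adjusted p = 0.464). With 5 mice per group this does not show that the ratio was unchanged.

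The order of levels changed with the genotype. In Control iBAT it ran Cers2, Degs1, Sptlc1, Cers5, Sgms1, Kdsr, Sptlc2, Ugcg, Cers4 and Cers6, and neighbors overlapped only between Sgms1 and Kdsr and between Sptlc2 and Ugcg. In AdCKO iBAT Sgms1 came next after Degs1, above Sptlc1 and Cers5, and Kdsr had dropped below Ugcg and Sptlc2. There the neighbors that overlapped were Sptlc1 with Cers5 and Ugcg with Sptlc2. The summed level of the 10 genes was 1476 to 1600 reads per kb in Control and 1640 to 1914 in AdCKO, on the deposited scaling. Its mean went from 1532 to 1816, and most of that rise was Degs1 (270.4 to 470.5), while Cers2 was at 802 in both groups. The sum thus does not describe the set as a whole.

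A further 60 genes of sphingolipid metabolism were listed by role, of which 56 were in the table and 44 were tested. Of the 44, 20 were higher and 8 were lower, with a median log2 fold change of 0.38, beside the 25.6% and 28.0% of all tested genes. With equal library totals 34 of 45 were higher and 4 lower, where 61.3% of all tested genes were higher and 9.59% lower. The minimum mean was reached through 1 group alone by 6 of the 44, through AdCKO by Degs2, B4galt6, A4galt, S1pr2 and S1pr4 and through Control by S1pr5, so that their difference decided their place among the genes tested. Of the 38 that reached it in both groups, 16 were higher and 7 lower. Among the other subunits and regulators of serine palmitoyltransferase, 1 of 4 changed. Ormdl3, which encodes an inhibitor of the enzyme that senses ceramide, fell from 1809 ± 114 to 979.7 ± 118 reads per kb (log2 fold change -0.89, limma adjusted p = 2.55e-06), and it stayed lower with the same total (-0.41). Ormdl3 was more abundant than any of the 10 synthesis genes in both genotypes. Ormdl1, Ormdl2 and the small activating subunit Sptssa, at 214.6 ± 21.2 and 215.8 ± 8.59, were not called on the deposited scaling. Sptlc3, an alternative catalytic subunit, was listed at 2.30 ± 0.153 and 5.26 ± 1.08 and was too low to be tested.

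Of the other enzymes of the same steps, 4 were in the table and 2 were tested. Degs2, which encodes the desaturase that also hydroxylates dihydroceramide, was measured at 7.29 ± 1.04 (Control) and 17.5 ± 1.58 reads per kb (AdCKO; log2 fold change 1.16, limma adjusted p = 2.52e-06), and it entered the test only through its higher AdCKO mean. Samd8, a relative of the sphingomyelin synthases, was not called (0.18), and Sgms2, the plasma membrane sphingomyelin synthase, was listed at 4.08 ± 0.847 and 9.52 ± 0.557 and not tested, like Cers3 at 0.431 and 0.437. Of 5 genes for transfer and phosphorylation of ceramide, 2 were higher and 1 was lower. Cerk, the ceramide kinase, rose from 25.7 ± 2.48 to 66.0 ± 2.94 (1.33, limma adjusted p = 4.85e-08) and Gltp, a glycolipid transfer protein, from 182 ± 30.2 to 339.9 ± 39.8. Plekha8, which carries glucosylceramide, was lower by a log2 fold change of -0.46, and that call was lost with the same total (-0.0066). Col4a3bp, which encodes the carrier that delivers ceramide for sphingomyelin synthesis, was not called (-0.07).

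Beyond glucosylceramide, 5 of the 9 genes of complex glycosphingolipid synthesis in the table were tested, of which 4 were higher and 1 was lower under each scaling tried. Among the 3 that reached the minimum in both groups, B4galt5 and B4galnt1 were higher and St3gal5 was lower, while B4galt6 and A4galt reached it in AdCKO only. The lactosylceramide synthases B4galt5 and B4galt6 rose from 15.4 ± 1.59 to 64.2 ± 13.0 and from 4.40 ± 0.469 to 16.6 ± 3.06 reads per kb (log2 fold changes 1.97 and 1.69). A4galt, which starts the globosides, rose from 9.38 ± 0.984 to 28.3 ± 4.42, and B4galnt1, which extends gangliosides, from 16.4 ± 5.57 to 65.5 ± 33.6 (1.49 and 1.87). St3gal5, which adds sialic acid to lactosylceramide to make the simplest ganglioside, fell from 247 ± 68.8 to 104 ± 27.8 (-1.24, limma adjusted p = 0.000245). It was the most abundant of the 5 in both genotypes. The 4 genes not tested were St8sia1 (0.400 in Control and 0.611 in AdCKO), Ugt8a (0.437 and 0.523), Gal3st1 (2.35 and 3.12) and B3gnt5 (2.07 and 2.74).

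Genes that break sphingolipids down moved in both directions. Of 3 sphingomyelinases tested, 2 were lower and none was higher. Smpd1, the acid sphingomyelinase, fell from 459 ± 48.4 to 274 ± 21.2 reads per kb (log2 fold change -0.74, limma adjusted p = 8.58e-06), and Smpd4 from 60.1 ± 3.62 to 45.8 ± 3.24 (-0.38, which turned to 0.088 with the same total). Smpd3 (1.90 and 3.23) and Smpdl3b (3.85 and 4.41) were too low to be tested. Of 4 ceramidases, the acid ceramidase Asah1 (162 ± 11.0 to 249 ± 20.6) and Acer3 (19.6 ± 1.43 to 33.6 ± 5.68) were higher and the Golgi ceramidase Acer2 (72.7 ± 16.0 to 52.7 ± 4.45) was lower, a direction that turned to 0.038 with the same total. Of 12 lysosomal genes of glycosphingolipid breakdown, 6 were higher and 1 was lower. Gla, the lysosomal alpha-galactosidase, rose from 15.9 ± 3.30 to 52.7 ± 8.73 (1.68), and Hexa, a subunit of beta-hexosaminidase, from 238 ± 40.5 to 495 ± 60.0 (1.06). The sulfatide-cleaving Arsa fell from 176 ± 10.6 to 118 ± 11.2, and its call was lost with the same total (-0.098).

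Sphingosine 1-phosphate is the signaling product at the end of the pathway. Of 3 tested genes that make or remove it, 2 were higher: Sgpp1, its phosphatase, rose from 22.5 ± 5.96 to 73.7 ± 11.0 reads per kb (log2 fold change 1.69) and the kinase Sphk2 from 79.7 ± 7.29 to 119.5 ± 12.5 (0.58). The other kinase, Sphk1, was listed at 1.15 and 1.43 and the phosphatase Sgpp2 at 0.789 and 0.882, and neither was tested. Among 6 genes for its export and receptors, 3 were higher and 1 was lower. The exporter Spns2 rose from 38.7 ± 3.17 to 65.2 ± 9.72. The receptor S1pr2 was at 8.95 ± 0.917 in Control and 29.0 ± 4.33 in AdCKO, and the receptor S1pr5 at 29.6 ± 6.21 and 7.52 ± 2.08 (-1.85, limma adjusted p = 4.13e-06), each tested only through the group where it was high. Mfsd2b, another exporter, was at 5.06 and 4.30 and was not tested. The remaining higher gene, S1pr3, had overlapping groups and was no longer called after quantile normalization (0.26). The higher macrophage and fibroblast markers given above accompanied all of these lists, and their part in them was not tested.

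**Figure D4:**
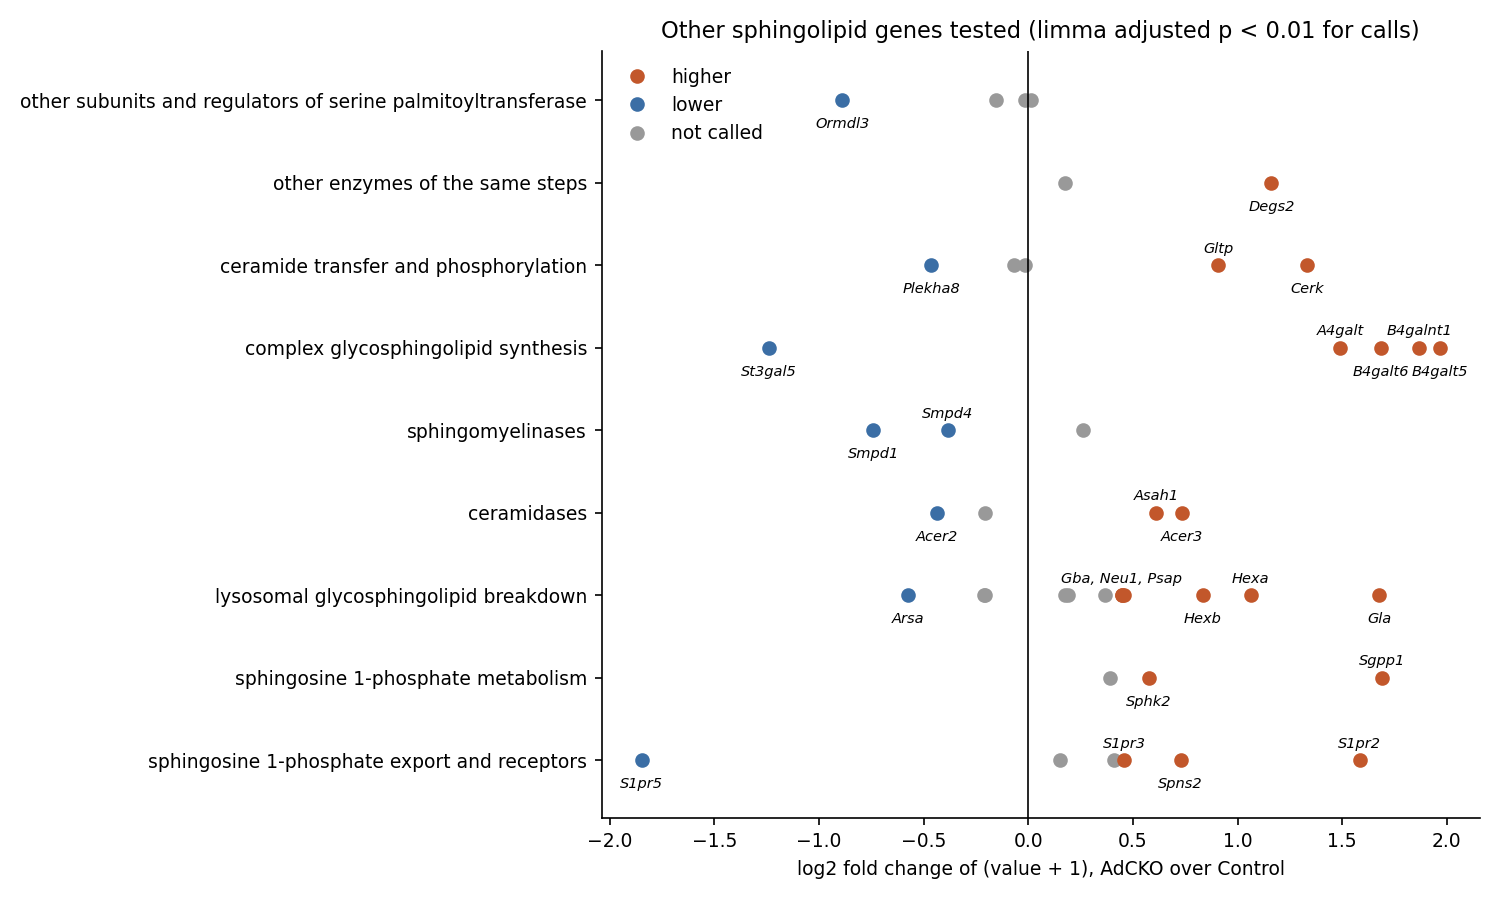
Log2 fold change of (value + 1), AdCKO over Control, for the 44 tested genes of sphingolipid metabolism outside the 10, with 1 row per role and called genes named in color. Called genes lie on both sides of 0 in most rows, and 4 of the 5 tested genes of complex glycosphingolipid synthesis lie at 1.49 or above, B4galt6 and A4galt among them through their AdCKO mean alone; with the same total in every library Smpd4 and Acer2 change sign and Plekha8 and Arsa are not called.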

How the data were processed

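RNA from iBAT of 5 Control and 5 AdCKO mice was analyzed, grouped by the sample labels. Reads had been aligned by the authors to the mm9 genome using STAR, assigned to exons using iRNA-seq and normalized through DESeq2. What the authors deposited is a signal, given as normalized reads divided by the kb of exon counted, for 1 RefSeq transcript per gene. They are not counts, the depth behind them is unknown, and the sources used here do not say how they were moderated between samples. At best 22.3% to 23.6% of low values per library fell within 0.1 of a whole read, where 20% would by chance, so the count test of the study could not be run. The authors also deposited group means, log2 fold changes, adjusted p-values and gene lists, none of which were used.

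A pseudocount of 1 was added before log2, and genes with a mean of at least 10 in either group were compared in R 4.3.3 with limma 3.58.1 (two-sided, variance trended on intensity). P-values were adjusted by Benjamini-Hochberg over every tested gene, and calls were made at 0.01. This scale understates the fold changes of low genes. The script was tested on simulated data. Ratios within a library were compared by exact two-sided permutation tests, with adjustment over 6 ratios and a threshold of 0.05. Each library came from a different mouse, so p-values reflect the spread between mice in the deposited values. How far moderation narrowed that spread in low genes is not known. Sphk1, for example, was at 1.15 ± 0.0043 reads per kb in Control. Replicate numbers did not pair the samples, since deviations of same-numbered libraries correlated at -0.268 to 0.0980. Promoters came from RefSeq (GRCm38.p6, 14 for the 10 genes), and exon overlaps from Gencode on mm9. Plots were made in Python 3.11.15 (matplotlib 3.10.9).

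The 10 genes and all lists were chosen with earlier results of these data known, and the GC and CCAAT boxes after the promoters were seen. All 10 genes and Crls1 are named, and from each other sphingolipid list at most 4 called genes per direction by smallest p and those too low to test are given with values, beside uncalled genes named for their count. Of the cell markers, Fabp4, Ucp1, Myl1 and Acta1 are named. Alternatives were the pseudocount, the minimum mean, the scaling, the variance model, sample weights, the threshold, a replicate block and leaving out each library. The 3 AdCKO libraries rich in muscle markers were left out in a fit added after seeing the data.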

Additional observations from a re-analysis of the deposited data

How the results depend on the processing

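All 6 calls among the 10 genes remained in each of the 10 fits that left out 1 library, and under every other alternative except giving each library the same total, which kept 4. That scaling called 7001 genes as higher and 1094 as lower (2879 and 3152 as deposited), 7 and 0 of the 9 synthesis genes, and 34 and 4 of 45 other sphingolipid genes. Sptlc1 then turned to 0.20 (limma adjusted p = 0.0249) and Cers5 to 0.44, and Kdsr was at -0.16. Quantile normalization put Cers4 at -0.0098 and Cers2 at 0.24. Cers2 was -0.067 without the 3 muscle-rich libraries, -0.016 to 0.032 when single libraries were left out, and changed sign in 6 of those 10 fits, while Cers5 ran from -0.084 to 0.0071. Without the 3 muscle-rich libraries 2083 genes were higher and 2191 lower, and the Cers6 share and the log2 Sptlc2 to Sptlc1 ratio differed by 0.133 percentage points and 0.93 (exact permutation, adjusted p = 0.1429 each), where 5 against 2 mice cannot pass the threshold. With the replicate number as a block, these differences were 0.182 points and 0.94 (adjusted p = 0.1875 each), where 5 pairs cannot pass either, all 6 genes were still called, and 2592 genes were higher and 2838 lower; 0 of 5 libraries correlated best with their own number. Leaving out single libraries gave 0.167 to 0.199 points and 0.91 to 1.00, and moved the difference in Cers2 share from -0.577 to 0.0918 points, above 0 only without Control mouse 2. The count test on whole reads was not run, because the values gave none. The causes of these changes were not tested. Unknown depth limits what can be said of Cers6, Sptlc3, Sgms2 and Sphk1, and values per kb do not tell splice forms apart.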
